A study of Mus musculus with 3 samples.

Results

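Stress-high and stress-low control cells are cells of 1 control library of mouse neural progenitors, set apart by how many of 5 stress genes they held. Whether the cells form a gradient or separate states was not tested. A cell was kept when its barcode held 6000 or more unique molecular identifiers (UMIs, each marking 1 captured transcript) and 500 or more genes, with no more than 20% of its UMIs from mitochondrial genes. A kept cell was called high when at least 3 of the 5 rule genes Ddit3, Chac1, Trib3, Atf3 and Nupr1 had 1 or more UMIs, and low when all 5 were at 0. Of 5038 kept control cells, 1805 were high (35.8%, exact Clopper-Pearson 95% interval 34.5 to 37.2) and 1305 were low (25.9%, 24.7 to 27.1). The other 1928 cells, with 1 or 2 rule genes, lay between them. The whole series held 15766 kept cells in 3 libraries.

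The cells came from brains of postnatal day 1 mice, were grown as neurospheres in medium with epidermal growth factor at 20 ng/mL, and were plated at 50000 per dish or device. No strain, genotype, sex or number of animals is given in the labels. The third library is labelled only as control, without a statement of how it was handled or on which surface it was plated. The bulk library was electroporated in a Lonza 4D Nucleofector and the localized library on the device with 400 pulses of 20 V, both after 16 h of culture, and cells were dissociated with trypsin 4 h later. Each condition was 1 library, so no value below has a replicate check, no test across cells was made, and intervals cover counting error only. High and low cells came from the same library.

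The integrated stress response starts when a kinase (PERK, GCN2, PKR or HRI, encoded by Eif2ak3, Eif2ak4, Eif2ak2 and Eif2ak1) phosphorylates the translation factor eIF2. General translation then falls while the transcription factor ATF4 is translated. ATF4 and its partners induce amino acid transporters, transfer RNA synthetases and biosynthetic enzymes, and with prolonged stress also CHOP, the product of Ddit3. The other rule genes are known targets of this pathway: Chac1 encodes a glutathione-degrading enzyme, Trib3 a pseudokinase that restrains ATF4, Atf3 a stress-induced factor of the same class, and Nupr1 a small chromatin-associated stress protein. ATF4 and its C/EBP partners bind C/EBP-ATF response elements, whose core is TGATGNAA.

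Promoter windows are shown because many genes described below were higher in the same cells. They reach from 250 bases before to 50 after each RefSeq gene start on GRCm38.p6. On either strand, the core TGATGNAA lay in the windows of 4 of the 5 rule genes, in Trib3 after the start. Of 68 windows of rule genes, the 15 highest genes and compared integrated stress response genes, 55 had the 20 bases after the start in a transcript of the gene. A gene was counted when any of its windows held a match. Of genes with a window, the core lay in 14 of 84 at least 2-fold higher in high cells (16.7%) and 1 of 35 at least 2-fold lower (2.86%). It lay in 144 of 6050 of all genes compared (2.38%) and in 4.51% of all 27025 genes with a window. Of the 15 genes with the highest ratios at 20 CPM or more, 4 held it (CPM are counts scaled to 1000000 UMIs). The stretches below, 5′ to 3′ on the gene's strand, are from 3 rule genes, those 4 genes and Asns, with every match in capitals. A match is a description and not a binding site.
Chac1 (chr2:119351023-119351082, plus strand): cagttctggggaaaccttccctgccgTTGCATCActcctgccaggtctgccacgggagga
Atf3 (chr1:191183410-191183469, minus strand): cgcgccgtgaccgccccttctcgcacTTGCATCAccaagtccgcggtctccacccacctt
Nupr1 (chr7:126625547-126625606, minus strand): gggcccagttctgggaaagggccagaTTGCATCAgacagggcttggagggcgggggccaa
Slc7a11 (chr3:50443646-50443705, minus strand): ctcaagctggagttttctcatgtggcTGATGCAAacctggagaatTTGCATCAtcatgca
Jdp2 (chr12:85599357-85599415, plus strand): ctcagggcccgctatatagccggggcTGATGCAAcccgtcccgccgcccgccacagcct
Pck2 (chr14:55540137-55540196, plus strand): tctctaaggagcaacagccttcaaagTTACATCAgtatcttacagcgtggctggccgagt
Herpud1 (chr8:94386291-94386350, plus strand): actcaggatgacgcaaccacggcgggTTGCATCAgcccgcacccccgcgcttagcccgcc
Asns (chr6:7693210-7693258, minus strand): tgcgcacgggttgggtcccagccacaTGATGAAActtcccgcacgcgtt

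Slc7a11 held 2 matches within this stretch, 1 on each strand. Other motifs were searched in the same windows, on both strands. The longer element TGATGCAAT, which contains the core, was in 1 of 84 2-fold higher genes with a window (Iars, 1.19%). Of all genes compared, 6 of 6050 with a window held it (0.0992%). The cAMP response element TGACGTCA was in 5 of 84 2-fold higher genes (5.95%) and 254 of 6050 of all compared (4.20%). CCACG, a part of the ER stress element, was in 67.9% and 54.7%, and in 13 of 14 genes with a window among the 15 highest.

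The rule genes differed in how often they put a cell in the high group. The values of this paragraph chose the groups and are a description. Ddit3 was held by 97.6% of high and 75.9% of middle cells. The shares among high cells were 84.1% for Chac1, 66.7% for Atf3, 63.8% for Trib3 and 52.4% for Nupr1. The most frequent combination was Ddit3, Chac1 and Atf3 without the other two, in 292 cells (16.2% of high cells), followed by all 5 genes in 265 cells (14.7%). Ddit3 alone was held by 654 middle cells. Cells just inside the limit, with exactly 3 genes (907 cells), held 678 CPM of the rule genes, and cells just outside, with exactly 2 (926 cells), held 432 CPM. At the UMI limit, 13.4% of the 194 cells within 500 UMIs above it were high, against 16.7% of the 210 barcodes within 500 UMIs below it. Barcodes of 10 to 100 UMIs, which hold mostly free RNA, had 138 CPM of Ddit3, against 222 CPM in all kept control cells.

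Each rule gene was also read in groups formed without it, from at least 3 and from none of the other 4. Ddit3 was then 422 CPM in high and 56.4 CPM in low cells, and its log2 ratio was 2.88. Chac1 was 123 against 12.7 CPM (log2 3.17) and Trib3 was 73.0 against 4.01 CPM (log2 3.89). Atf3 was 104 against 10.3 CPM (log2 3.21) and Nupr1 was 72.3 against 3.73 CPM (log2 3.95). With every cell thinned at random to 6000 UMIs before the groups were formed, the ratios were 2.23, 2.48, 3.19, 2.67 and 3.41 in the same order. Each of the 5 genes was therefore higher in cells chosen by the other 4, also at equal depth.

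**Figure D1:**
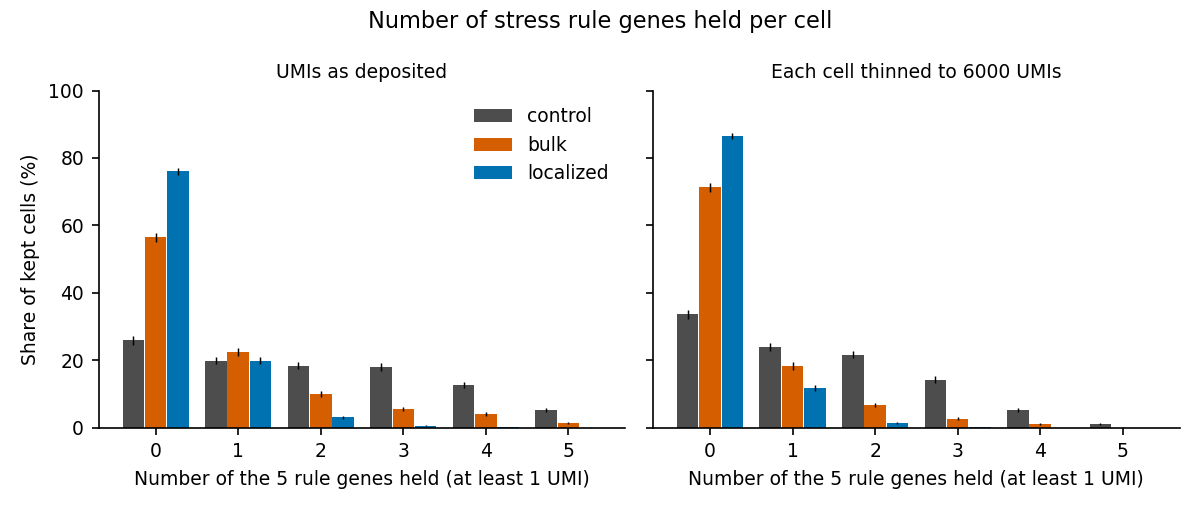
Share of kept cells (%, y axis) by the number of the 5 rule genes held (x axis) in control, bulk and localized libraries, as deposited (left) and thinned to 6000 UMIs per cell (right); bars start at 0 and error bars are exact 95% binomial intervals. In control, 5.26% of cells held all 5 genes as deposited and 25.9% held none.

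Depth moved with the rule. High cells had a median of 11616 UMIs, middle cells 9629 and low cells 9925. The share of high cells was 19.1% among cells under 8000 UMIs, then 29.8%, 40.6% and 52.4% in the bins from 8000, 10000 and 14000. When cells were thinned to 6000 UMIs before the rule was applied, 20.7% of control cells were high, and the shares in the same bins were 15.5%, 20.4%, 22.5% and 23.1%. Cells above 25000 UMIs, in which doublets would be concentrated, numbered 56 in the high and 1 in the low group. At equal depth the groups held similar numbers of genes, with medians of 2141 and 2221 per 6000 UMIs. Doublets were not removed, and their part in the results was not tested beyond leaving these cells out.

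Genes of the integrated stress response outside the rule were higher in high cells. The 5 lists read held 72 such genes, of which 63 reached 10 CPM over all kept control cells and could be compared. Of the 63, 53 were above 0 on the log2 scale, 27 were at least 2-fold higher and 0 were 2-fold lower, and their median was 0.87. Over all 7526 genes compared, 102 (1.36%) passed 2-fold upward and 50 (0.664%) passed it downward, and the median was -0.08. The filter can favour genes that are high in 1 group, and this limit also holds for the counts of each list below. For example, Slc7a11, Slc6a9, Aldh1l2, Vegfa, Klf4, Fosl2, Jdp2, Gadd45a and Pfkfb3 were under 10 CPM in low cells. Without the filter, 59 of the 72 were above 0 and 31 were at least 2-fold higher. Among the 57 that reached 10 CPM in low cells alone, 47 were above 0 and 21 were at least 2-fold higher. Together the 72 genes made up 7730 CPM of high and 3615 CPM of low cells.

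Per cell, after thinning to 6000 UMIs, high cells held a median of 46 UMIs of these 72 genes and low cells 21. The quartiles were 38 and 54 in high cells and 17 and 25 in low cells. Only 24 of 1305 low cells (1.84%, 1.18 to 2.72) reached the high median, and 19 of 1805 high cells (1.05%, 0.635 to 1.64) were at or below the low median. With the rule itself applied to thinned cells, the medians were 47 and 21, and 51 low and 6 high cells overlapped in this way. Middle cells lay between the groups, with medians of 25 for 1 rule gene and 38 for 2 under the rule as deposited, and of 33 and 41 under the thinned rule.

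**Figure D2:**
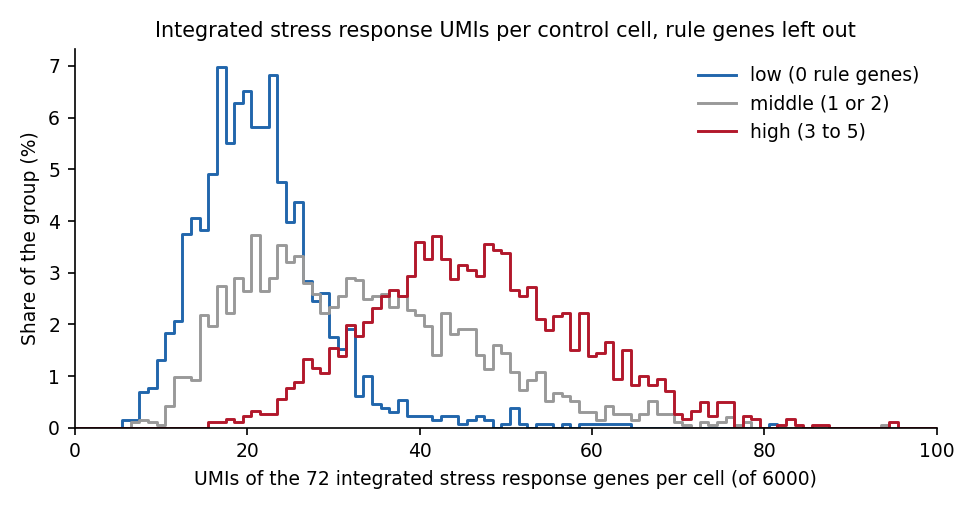
Distribution of UMIs of the 72 integrated stress response genes per control cell after thinning to 6000 UMIs (x axis), as a share of each group (y axis, %), for low, middle and high cells; the rule genes are left out. Low cells peak around their median of 21 and high cells around 46, while middle cells spread across both.

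Single genes were ranked among those of at least 20 CPM over all kept control cells, without the rule genes and without predicted, Riken, ribosomal protein and mitochondrial genes. The highest ratio among them belonged to Slc7a11 (chr3:49892526-50443614, minus strand), the cystine and glutamate exchanger that feeds glutathione synthesis. It was 52.8 CPM in high cells (exact Poisson 95% interval 49.9 to 55.9) and 4.31 CPM in low cells (3.28 to 5.56), a log2 ratio of 3.34 with 1 CPM added to each. At 6000 UMIs per cell, 22.5% of high and 2.53% of low cells held it. Klf4, a zinc finger transcription factor (chr4:55527143-55532466), was 91.1 against 9.13 CPM (log2 3.18). Gdf15, a secreted stress cytokine (chr8:70629393-70632456), was 218 CPM (212 to 225) against 23.2 CPM (20.8 to 25.9), a log2 ratio of 3.18, and 54.1% against 9.58% of thinned cells held it. Next came the basic leucine zipper genes Nfil3 (81.4 against 12.9 CPM, log2 2.56) and Jdp2 (48.2 against 7.53 CPM, log2 2.53), and Vegfa, the angiogenic growth factor (60.4 against 9.65 CPM, log2 2.53). The other 9 of the 15 highest in that ranking, Cebpb, Gadd45a, Mthfd2, Pck2, Ero1l, Herpud1, Ppp1r15a, Slc25a33 and Ddit4, had log2 ratios of 2.35 to 1.99. For all 15, the level in barcodes of 10 to 100 UMIs lay between those of low and high cells, for example 34.1 CPM for Slc7a11. The part of free RNA was not tested. With 10% of each group's UMIs taken away with that profile, the median of the integrated stress response genes went from 0.87 to 0.97. The same profile and share came off both groups, which by itself raises ratios above 0, so this change does not measure free RNA.

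**Figure D3:**
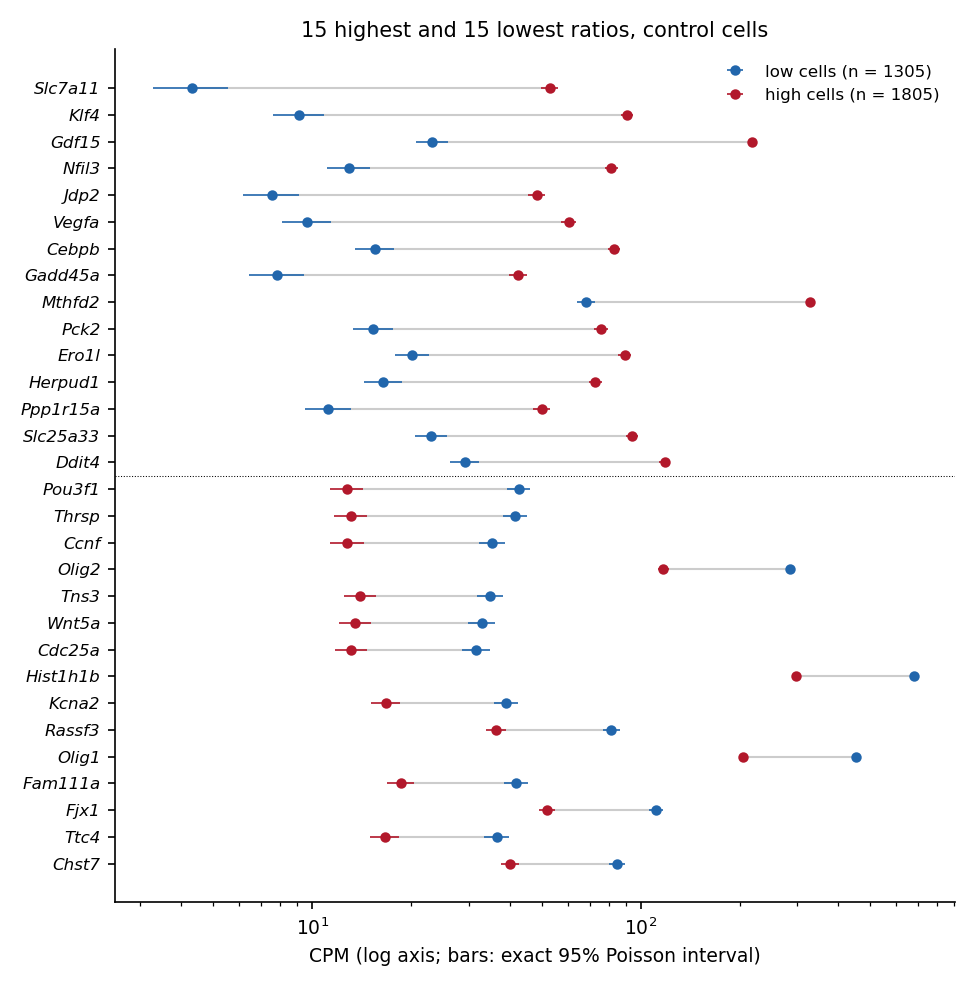
CPM in high and low control cells (log x axis, exact 95% Poisson intervals for counting error) for the 15 genes with the highest and the 15 with the lowest ratios among genes of at least 20 CPM. Slc7a11 is at 52.8 against 4.31 CPM at the top, and Chst7 at 40.0 against 84.8 CPM at the bottom.

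Of 14 compared factors and feedback genes, 9 were above 0, 5 below 0 and 7 at least 2-fold higher, with a median log2 ratio of 1.04. Atf4 itself was 459 against 142 CPM (log2 1.69), Atf5 was 67.8 against 20.8 CPM (log2 1.66) and Cebpg, a dimer partner of ATF4, had a log2 ratio of 1.75. Cebpb was 83.0 against 15.5 CPM (log2 2.35). Ppp1r15a, the inducible subunit that directs dephosphorylation of eIF2, had a log2 ratio of 2.07, while its constitutive counterpart Ppp1r15b had 0.42. Eif4ebp1, a repressor of cap-dependent translation, was 548 against 144 CPM (log2 1.92). Among the kinase genes Eif2ak3 had 0.20, Eif2ak1 -0.48 and Eif2ak2 -0.83, and Eif2ak4 was below the CPM filter. The other 3 genes below 0 were Trib2 (-0.26), Cebpd (-0.53) and Trib1 (-0.76). Their messages do not report kinase activity.

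Amino acid transport stood among the highest groups. All 8 compared transporters were above 0, 5 were at least 2-fold higher (1.36% of all genes compared were) and the median was 1.62. Beside Slc7a11 these were the cationic amino acid transporter Slc7a1 (145 against 37.3 CPM, log2 1.94), Slc3a2, the shared heavy chain of Slc7a11 and Slc7a5 (535 against 167 CPM, log2 1.67), the glycine transporter Slc6a9 (20.5 against 5.92 CPM, log2 1.64) and Slc7a5, the large neutral amino acid transporter (log2 1.60). Slc38a1, a glutamine transporter, was lowest among the 8 at 0.24. Slc7a11 and Slc6a9 were below 10 CPM in low cells and passed the filter only over all kept cells.

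Transfer RNA synthetases were higher by less and unevenly. Of 20 cytosolic synthetase genes, 17 were above 0, 4 were at least 2-fold higher and the median was 0.77. The 4 were Cars (86.4 against 36.7 CPM, log2 1.21), Sars (225 against 101 CPM, log2 1.15), Nars (391 against 187 CPM, log2 1.06) and Iars (97.0 against 46.9 CPM, log2 1.03). Tars, Aars, Eprs, Yars, Mars and Gars lay between 0.98 and 0.83. Hars, Farsa, Kars, Vars, Qars and Dars lay between 0.16 and -0.22.

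Among 15 compared enzymes of serine, asparagine, proline and one-carbon metabolism, 5 were at least 2-fold higher and the median was 0.72. Mthfd2, the mitochondrial folate enzyme, was 328 against 68.2 CPM (log2 2.25) and was held by 83.3% of high and 29.8% of low thinned cells. Mitochondrial Pck2 was 75.6 against 15.3 CPM (log2 2.23), Aldh1l2, also of mitochondrial folate metabolism, was 22.6 against 4.97 CPM (log2 1.98), and asparagine synthetase Asns was 245 against 78.0 CPM (log2 1.64). Psph, the last step of serine synthesis, had 1.29, while Phgdh and Psat1, the steps before it, had 0.72 and 0.22. The cytosolic folate enzymes Mthfd1 and Shmt1 were at -0.17 and -0.22, against 2.25 for Mthfd2 and 0.88 for Shmt2 in mitochondria.

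All 6 compared secreted and growth-control targets were at least 2-fold higher, with a median of 1.95. Beside Gdf15 and Vegfa they were the mTORC1 inhibitors Ddit4 (118 against 29.2 CPM, log2 1.99) and Sesn2 (93.3 against 24.0 CPM, log2 1.91), the secreted glycoprotein Stc2 (1.80) and the lipoprotein receptor Vldlr (1.80). Fgf21 and Adm2, both secreted, did not reach 10 CPM and had ratios of 2.69 and 2.31. With the other genes below the filter (Slc7a3, Slc1a5, Slc36a4, Slc38a3, Cth, Pycr1 and Eif2ak4), these account for the 9 list members not compared.

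Levels followed the number of rule genes held, with cells thinned to 6000 UMIs before both the rule and the values. Atf4 was 169 CPM in cells with none, 321 with 1, 424 with 2, 464 with 3, 514 with 4 and 565 with all 5. Slc3a2 ran from 197 to 417, 512, 570, 589 and 639 CPM in the same order. In both genes the largest step was between 0 and 1 rule gene. Mthfd2 ran 82.9, 213, 289, 328, 375 and 343 CPM, and Slc7a11 ran 7.46, 18.4, 40.1, 49.6, 69.1 and 64.8 CPM. The last step down in both lay within the counting intervals of the 54 cells that held all 5 genes after thinning. Hspa5, the main ER chaperone, stayed between 355 and 435 CPM with no order.

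**Figure D4:**
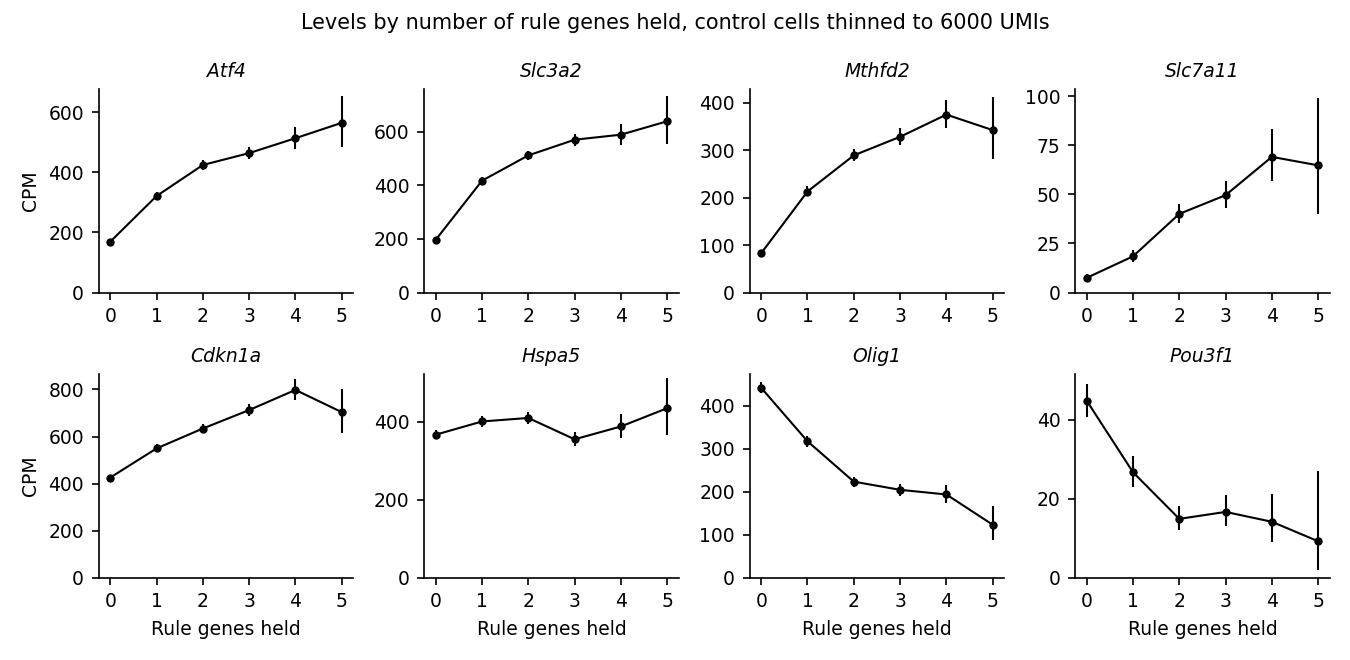
CPM (y axis, starting at 0) of 8 genes by the number of rule genes held (x axis) in control cells thinned to 6000 UMIs; bars are exact 95% Poisson intervals for counting error. Atf4, Slc3a2, Mthfd2, Slc7a11 and Cdkn1a are lowest in cells with 0 rule genes, Hspa5 has no order, and Olig1 and Pou3f1 are highest in cells with 0.

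The other arms of the ER stress response were not higher as a group. Of 19 compared genes of the ATF6 and XBP1 arms, 9 were above 0, 1 was at least 2-fold higher and the median was -0.02. The 1 was Herpud1, a component of ER-associated degradation (72.9 against 16.4 CPM, log2 2.08). Xbp1 was 36.7 against 25.2 CPM (log2 0.53), Sel1l 41.2 against 30.8 CPM (0.41) and Dnajb9 20.2 against 15.7 CPM (0.35). Hspa5 had 0.13, Hsp90b1 and Calr 0.03 each, and Sdf2l1 -0.25, and 10 of the 19 were below 0. Ero1l, the ER oxidase known as a CHOP target, was 89.4 against 20.2 CPM (log2 2.10) and stood outside that list.

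Other stress programs were read in the same way. Cytosolic heat shock chaperones had 2 of 9 genes above 0 and a median of -0.21, and Hsph1, a co-chaperone of HSP70, was 46.9 against 84.3 CPM (log2 -0.83). Mitochondrial chaperones and proteases had a median of 0.06, with the HSP70 of mitochondria, Hspa9, highest at 392 against 237 CPM (log2 0.72). Of 18 p53 targets, 2 were at least 2-fold higher and the median was -0.07. These were Gadd45a, a growth arrest gene (42.5 against 7.82 CPM, log2 2.30), and Bbc3, the pro-death BH3 gene also called Puma (39.4 against 14.1 CPM, log2 1.42). Cdkn1a, the cell cycle inhibitor p21, was 735 against 430 CPM (log2 0.77), but Trp53inp1 was at -0.67 and Ccng1 at -0.32. Of 8 BCL2 family genes, Bbc3 alone was above 0, and Bok and Bad were at -0.76 and -0.64.

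Of 16 antioxidant targets of NRF2, 10 were above 0 and 6 below 0. Their median was 0.17, against -0.08 over all genes compared. The 2 at least 2-fold higher were Slc7a11 and the heme oxygenase Hmox1 (107 against 33.2 CPM, log2 1.66). Next came Srxn1 at 0.71 and Sqstm1 at 0.62. Among the 6 below 0, Nqo1 and Txnrd1 were at -0.19 and -0.22. Of 14 immediate early genes, 3 were at least 2-fold higher (Klf4, Fosl2 and Ier2) and the median was 0.53. Fos lay between 21.5 and 27.8 CPM at every number of rule genes held by thinned cells.

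Host genes of small nucleolar RNAs, spliced transcripts that are turned over during translation, were also higher. Of 14 compared, 6 were at least 2-fold higher and the median was 0.83. Snhg12 was 259 against 69.6 CPM (log2 1.88), Snhg5 was 85.6 against 23.5 CPM (log2 1.82), Snhg1 was 513 against 148 CPM (log2 1.79) and Zfas1 was 244 against 110 CPM (log2 1.14). Cytosolic ribosomal protein genes were above 0 in 77 of 81, with a median of only 0.13. The median was 0.04 for genes of ribosome biogenesis and 0.05 for nuclear-encoded oxidative phosphorylation genes. Cholesterol synthesis genes had a median of 0.19. Hypoxia and glycolysis genes had a median of 0.03 and autophagy and lysosome genes 0.10. In the first of these Vegfa and Pfkfb3, a regulator of glycolysis (log2 1.42), were the 2 at least 2-fold higher.

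In the same ranking at 20 CPM or more, the lowest ratio belonged to Pou3f1, a POU transcription factor (chr4:124656807-124660655). It was 12.8 CPM in high cells (11.3 to 14.3) and 42.6 CPM in low cells (39.2 to 46.2), a log2 ratio of -1.66. Thrsp, a regulator of lipid synthesis, was 13.1 against 41.6 CPM (log2 -1.59). The oligodendrocyte lineage factors Olig2 (117 against 285 CPM, log2 -1.27) and Olig1 (205 against 453 CPM, log2 -1.14) lie near each other on chromosome 16 and were both lower. In thinned cells Olig2 was held by 43.1% of high and 72.4% of low cells. Ccnf, Cdc25a and Hist1h1b, which serve the cell cycle and chromatin, had log2 ratios of -1.40, -1.20 and -1.19. The remaining 8 of the 15 lowest in that ranking were Tns3, Wnt5a, Kcna2, Rassf3, Fam111a, Fjx1, Ttc4 and Chst7, at -1.26 to -1.06. For Fam111a, Fjx1, Ttc4 and Chst7 the counting interval of the ratio reached below 2-fold. Olig1 was 442 CPM in thinned cells with 0 rule genes and 318, 224, 205, 194 and 123 CPM with 1 to 5.

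All 6 compared oligodendrocyte precursor markers of 11 listed were below 0, with 2 (Olig2 and Olig1) at least 2-fold lower and a median of -0.59. Over all 7526 genes compared, 4582 were below 0 and 50 (0.664%) at least 2-fold lower. The summed level of the 11 markers was 1213 CPM in high and 1693 CPM in low cells, and no marker was at 0 in both. A gate of at least 2 UMIs of Pdgfra, Cspg4, Sox10, Lhfpl3, Gpr17 and Neu4 together held 623 control cells. In the gate 22.3% of cells were high (19.1 to 25.8), and outside it 37.7% (36.3 to 39.2). With the rule applied to thinned cells these shares were 11.6% and 22.0%. Under the rule as deposited, low cells were 162 of 623 in the gate and 1143 of 4415 outside it. The median of the integrated stress response genes was 0.85 within and 0.88 outside the gate, so that difference between high and low cells was as large without the gated cells. The gate shares differed in the other libraries. In bulk 15.3% of cells were high in the gate and 10.3% outside it, and 3.59% and 3.74% with thinned cells. In localized cells the shares were 0.692% (0.279 to 1.42) and 0.897% (0.650 to 1.21).

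Cell cycle genes mostly had ratios below 0, as did 4582 of all 7526 genes compared, and few passed 2-fold. Of 22 G2/M genes 1 was above 0 (Ccnb2, 0.07), none was 2-fold lower and the median was -0.47, with Bub1b (29.5 against 54.7 CPM, log2 -0.87) and Aurka (30.4 against 52.0 CPM, log2 -0.76) lowest. Of 21 S phase genes, 4 were above 0 and the median was -0.29. Ccne1, the cyclin of entry into S phase, was the 1 that was 2-fold lower (10.0 against 30.9 CPM, log2 -1.53). In bulk, 12 of 22 S phase genes were above 0, where 48.9% of all genes compared were. In localized cells 5 of 22 were above 0, where 42.0% of all genes compared were. Growth factor feedback genes had a median of -0.20, with Spry4 at -0.84, Dusp6 at -0.76 and Ccnd1, cyclin D1, at 629 against 1092 CPM (log2 -0.80). No phase was called for single cells.

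All 13 mitochondrially encoded genes were below 0, with a median of -0.59 and 3 of them, mt-Nd6, mt-Nd4l and mt-Nd3, at least 2-fold lower. mt-Nd3 was 613 against 1239 CPM (log2 -1.01), whereas mt-Co1 was at -0.05. The median mitochondrial share per cell was 3.09% in high and 3.97% in low cells. Leaving out cells above 10% mitochondrial UMIs kept 101 of the 102 higher and 49 of the 50 lower genes. It left 1804 of 1805 high and 1299 of 1305 low cells, too small a change to test the part of the mitochondrial share.

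The neural progenitor label was checked in thinned control cells. Vim was held by 99.4%, Fabp7 by 99.9%, Nes by 74.8% and Sox2 by 74.5% of kept cells. For Sox2 the shares were 75.7% in high and 72.4% in low cells. Nes went the other way, at 73.6% of high (71.5 to 75.6) and 81.3% of low cells (79.1 to 83.4). Vim (99.8% and 99.3%) and Fabp7 (100% and 99.8%) were in nearly all cells of both groups. Progenitor markers had a median of 0.07 between the groups, with Id2 (181 against 108 CPM, log2 0.74), Hes5 (log2 0.69) and Id1 (log2 0.62) highest and Nes lowest at -0.45. Astrocyte markers had a median of 0.04 (3 of 6 above 0, summed 561 against 529 CPM). Of 3 compared neuron markers of 10 listed, Tubb3 was higher (22.3 against 9.43 CPM, log2 1.16) and Map2 lower (157 against 252 CPM, log2 -0.68), with summed levels of 207 and 293 CPM. The oligodendrocyte list had 1 compared gene, Cnp, at -0.58. No ependymal, microglial, endothelial, mural or erythroid marker reached 10 CPM, and their summed levels in either group were at most 8.11 CPM. Ptprc, a marker of leukocytes including microglia, and C1qa, a microglial marker, were in 0 of 5038 cells, which by the limit of 3 counts allows a share of up to 0.0595% of cells with a UMI (exact upper limit 0.0732%). The part of other cell types in the results was not tested beyond these values.

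The same rule was then applied to the libraries it had not been chosen on. It took 545 of 4923 bulk cells (11.1%) and 50 of 5805 localized cells (0.861%), and with thinned cells 3.72% and 0.224%, against 20.7% in control. Bulk high cells had a median of 18096 UMIs, and 37.2% of them were above 25000. In bulk, 119 of 7874 genes passed 2-fold upward in high cells (1.51%) and 27 downward (0.343%), while in localized cells the counts among 7950 genes were 123 (1.55%) and 234 (2.94%). The localized counts depended on the setting: higher and lower genes numbered 21 and 14 at 50 CPM, 55 and 9 with 2 rule genes, and 605 and 1868 with groups formed from thinned cells. The localized high group had 735085 UMIs in all, so its ratios are less precise. Libraries shared at most 8 kept barcodes in any pair.

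Of the 102 genes higher in control, 85 could be compared in bulk, of which 84 were above 0 and 56 passed 2-fold. Those 56 were 65.9% of the 85 and 65.1% of the 86 genes higher in bulk that were compared in control. Over all genes compared in bulk, 48.9% were above 0 in bulk. In localized cells 71 of 73 were above 0 and 43 were at least 2-fold higher (58.9% of the 73, and 41.7% of the 103 higher localized genes compared in control), with 42.0% of all localized genes above 0. Of the 50 lower genes, 48 were below 0 in bulk and 9 at least 2-fold lower (18.0% of the 50 and 33.3% of the 27 in bulk), with 51.1% of all bulk genes below 0. In localized cells 40 of 49 were below 0 and 8 at least 2-fold lower (16.3% of the 49, and 4.17% of the 192 lower localized genes compared in control), with 58.0% of all genes below 0. No gene was called in opposite directions.

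Integrated stress response genes had medians of 0.76 in bulk (24 of 60 at least 2-fold higher) and 0.81 in localized cells (23 of 58). Slc7a11 was 51.2 against 10.5 CPM in bulk (log2 2.19) and 70.7 against 15.9 CPM in localized cells (log2 2.09). Atf4 was 338 against 106 CPM in bulk and 278 against 93.4 CPM in localized cells, with log2 ratios of 1.66 and 1.56. Herpud1 stood at 1.67 and 1.84, while the ATF6 and XBP1 list had medians of -0.17 and -0.26. Among the lower genes, Olig1 was at -0.91 and -0.80, but Pou3f1 was at -0.73 in bulk and 0.53 in localized cells. That localized value came from 21 UMIs in high cells, and its counting interval (-0.14 to 1.18) included 0. Mitochondrially encoded genes were below 0 in all 13 in bulk (median -0.43) and had a median of -0.08 in localized cells. Snhg5, at 1.82 in control, was at 0.43 in bulk and -0.47 in localized cells, the last from 10 UMIs in high cells (-1.56 to 0.39). Whether ratios differ between libraries was not tested.

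**Figure D5:**
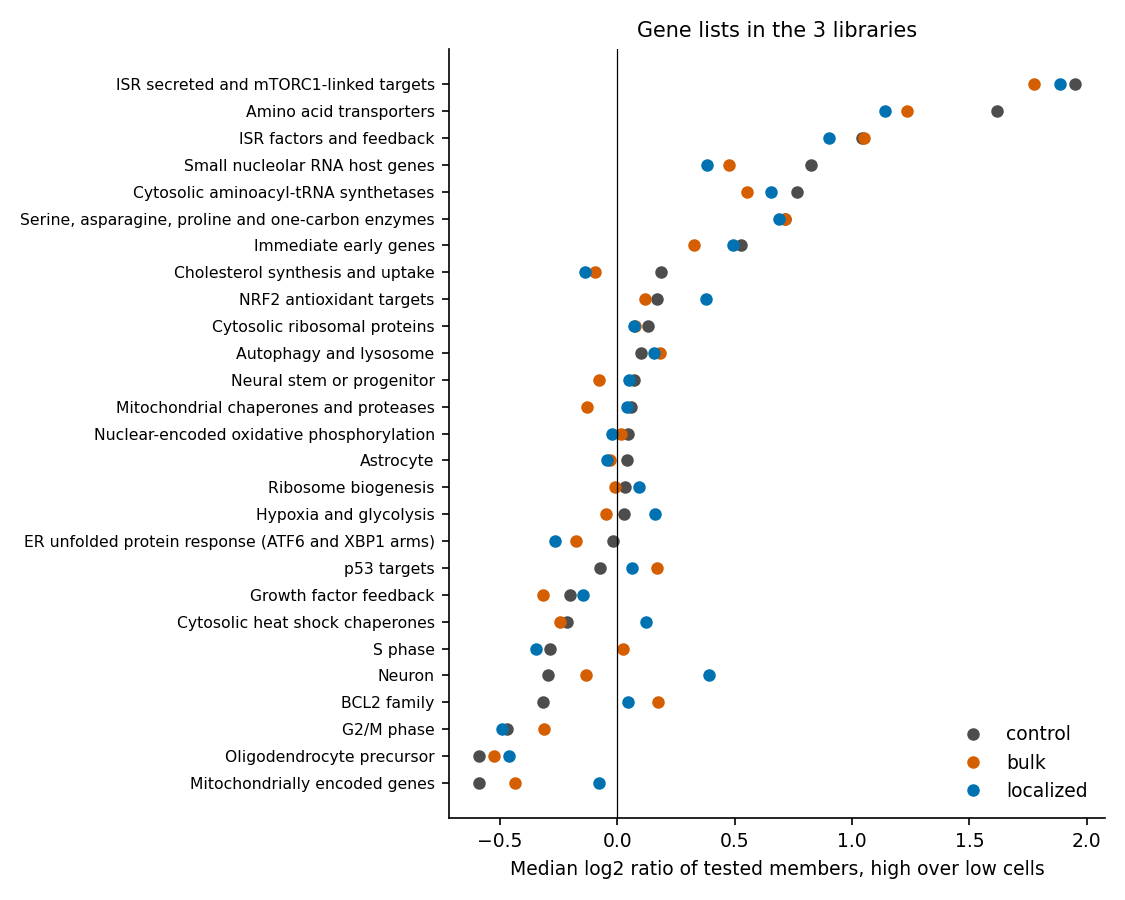
Median log2 ratio of high over low cells (x axis) for each gene list with at least 3 genes compared in control (y axis), in control, bulk and localized libraries; ISR stands for integrated stress response, and the line marks 0. The secreted, transporter and factor lists are at 1.95, 1.62 and 1.04 in control and are the 3 highest of the plotted lists in each library, and mitochondrially encoded genes are at -0.59 in control and -0.08 in localized cells.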

How the data were processed

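Single-cell 3′ RNA sequencing (10x Chromium) gave 1 library each of control, bulk and localized electroporation. The deposited files hold whole UMI counts per gene and barcode, per the file headers, for 32285 genes and all barcodes. Per the submitters' processing notes, Cell Ranger 6, Seurat 4.0.4 and GRCm38 were used; the file headers give Cell Ranger 4. No authors' cell filter was used here. Kept-cell totals were 56850387, 74609429 and 73744278 UMIs. No kept barcode was removed by the gene or mitochondrial limits.

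UMIs were summed per group and scaled to CPM. Ratios are log2 with 1 CPM added to both groups, which understates ratios of low genes, and genes needed 10 CPM over all kept cells of their library. Called means past 2-fold. Intervals are exact Poisson or Clopper-Pearson at 95%. Named genes were the 15 highest and 15 lowest control ratios at 20 CPM or more, without predicted, Riken, ribosomal and mitochondrial genes, plus as many as 4 genes of each list, by absolute ratio. Not every gene so chosen is reported here. Atf4, Atf5, Cebpg and the other list members named with a ratio alone lie outside that rule and, like Fos, were picked with their values known. Members and lists (24 pathway, 10 marker) were chosen with earlier results of these data known. Several pathway lists share genes. Coordinates of genes are GENCODE vM21 on GRCm38. Promoters are RefSeq's on GRCm38.p6, matched by symbol. Python 3.11.15, numpy 2.4.6, scipy 1.17.1 and matplotlib 3.10.9 were used, and the comparison was tested on simulated data.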

Additional observations from a re-analysis of the deposited data

Results flagged for a closer look

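In bulk cells, 3 progenitor genes had ratios of at least 0.5 in size and of the opposite sign to control, and this difference between the libraries was not tested. Hes5, a Notch target, had a log2 ratio of -1.65 in bulk (12.5 CPM in high and 41.1 CPM in low cells) and 0.69 in control. Id2, an inhibitor of differentiation, had -0.69 in bulk (36.3 against 59.3 CPM) and 0.74 in control. Id1, of the same family, had -0.61 in bulk (57.0 against 87.3 CPM) and 0.62 in control. Hes1, another Notch target, was also opposite but smaller, at -0.45 in bulk (30.1 against 41.4 CPM) and 0.50 in control. With groups formed from cells thinned to 6000 UMIs, the bulk values were -1.49, -0.47 and -0.47 for Hes5, Id2 and Id1. The control values were then 0.68, 0.35 and 0.52, so only Hes5 stayed at 0.5 or more in size in both libraries. Without cells above 25000 UMIs the bulk values were -1.67, -0.34 and -0.38. Bulk high cells were deeper than bulk low cells, with medians of 18096 and 11562 UMIs.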

How the results depend on the processing

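The share of high cells in control, 35.8%, was 20.7% with thinned cells, 17.8% and 54.2% with at least 4 or 2 rule genes, 30.9% from 3000 UMIs, 37.7% without precursor-gate cells, and 18.6%, 22.2%, 27.6%, 26.7% and 30.1% without Ddit3, Chac1, Trib3, Atf3 or Nupr1 in the rule. The bulk share of 11.1% became 3.72% thinned, 5.44% and 21.1% with 4 or 2 genes, 10.1% from 3000 UMIs, 7.79% up to 25000 UMIs, and 6.15%, 7.60%, 8.69%, 8.33% and 7.70% without each gene in that order. The localized share of 0.861% became 0.224% thinned, with 4 genes and without Ddit3, 4.01% with 2 genes, 0.534% without Chac1 or without Atf3, and 0.448% without Nupr1.

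The 102 higher genes of control numbered 43 at 50 CPM and 160 at 1 CPM. The 50 lower genes numbered 32 under median-of-ratios scaling, 25 with a pseudocount of 5 CPM, 14 at 50 CPM, 140 at 1 CPM and 81 with 10% free RNA taken away. Higher genes were 67.1% of called genes, 77.6% under median-of-ratios scaling and 53.3% at 1 CPM. In bulk, higher genes numbered 35 at 50 CPM and 260 at 1 CPM. Bulk lower genes (27) numbered 46 with thinned values, 51 with thinned groups, 14 with a pseudocount of 5 CPM, 7 and 58 at 50 and 1 CPM, 52 and 14 with 4 or 2 rule genes, 47 up to 25000 UMIs, 48 without free RNA and 46 without Ddit3. Localized higher genes (123) numbered 248 with thinned values, 605 with thinned groups, 21 and 457 at 50 and 1 CPM, 209 and 55 with 4 or 2 rule genes, 193 up to 25000 UMIs and 200 without Ddit3. Localized lower genes (234) numbered 692, 1868, 14, 1060, 931, 9, 484 and 938 under these settings, 392 with the mean of per-cell CPM, 88 with a pseudocount of 5 CPM, and 429, 358 and 507 without Chac1, Atf3 or Nupr1. The cause was not tested. The localized high group held 50 cells, and 13 with thinned groups.

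No named control gene past 2-fold changed sign under any of the settings run. In localized cells Jdp2 turned to -0.43 with 4 rule genes and -0.46 without Ddit3, and Apoe to -0.28, -0.30 and, without Atf3, -0.018; the cause was not tested. Control list medians near 0 changed sign in some settings: under median-of-ratios scaling the ATF6 and XBP1 arms went from -0.02 to 0.057 and p53 targets from -0.07 to 0.001. The control median of the 63 integrated stress response genes ranged from 0.78 to 0.97. No paired analysis was possible because each condition had 1 library. The 735085 UMIs of the localized high group limit its values.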

Other observations

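In bulk, interferon-response transcripts summed over high cells exceeded those over low cells. Of the bulk high cells 37.2% were above 25000 UMIs, against 3.78% of the low cells, and the part of depth in this difference was not tested. Of 18 listed interferon-response genes, 12 could be compared in bulk cells and 11 of them passed 2-fold upward, with a median log2 ratio of 1.78. Over all 7874 genes compared in bulk, 119 (1.51%) passed it and the median was -0.008. Summed levels of the 18 genes were 2798 against 738 CPM. In control the same list summed to 126 against 113 CPM, and only Ifitm3 could be compared (92.9 against 81.8 CPM, log2 0.18). In localized cells it summed to 209.5 against 116 CPM, with 10 of the 18 genes at 0 in the 50 high cells. In localized high cells, antioxidant targets of NRF2 had a median of 0.38, with Hmox1 at 828 against 181 CPM (log2 2.19) and Srxn1, which repairs peroxiredoxins, at 154 against 40.6 CPM (log2 1.89). In control, Srxn1 was 17.3 against 10.2 CPM (log2 0.71).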
